A study of Mus musculus with 11 samples.

Results

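Chromosomes 1, 2, 5, 14 and 18 are described here across 11 mouse mammary tumours. They are the 5 of 19 autosomes with the smallest share of array probes inside called copy-number gains or losses, and they were chosen on that share. The array holds 48880 genomic probes on them, of 161460 autosomal and 170305 genomic probes in all, with 12493 on chromosome 1, 12727 on chromosome 2, 10174 on chromosome 5, 7868 on chromosome 14 and 5618 on chromosome 18. In windows of 1 Mb with at least 10 probes they form 719 bins, against 1664 bins on the other 14 autosomes. The samples form 1 group, tumours from Pik3ca H1047R mice of a mixed FVBN/Bl6 strain background, numbered 1 to 11. Tumour DNA was labelled with Cy5 and liver DNA of the same animal with Cy3, so each log2 ratio sets a tumour against normal tissue that carries the same inherited genome. The labels give no age, no promoter for the mutant and no share of tumour cells, and the liver is the only comparison: no tumour without the mutation was analysed here. All positions are on mouse build mm9, per the file headers.

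Pik3ca encodes the catalytic subunit p110alpha of PI3-kinase, and H1047R is a mutation that keeps the enzyme active and is common in breast cancer. In such array hybridisation, DNA from both sources competes for the same probes, so a region that tumour cells have gained gives a ratio above 0 on the log2 scale and a region they have lost gives a ratio below 0. Carcinoma genomes usually carry changes of whole chromosomes, of long arms or blocks, and short changes that remove or duplicate part of a gene, and normal cells in a tumour piece pull every ratio towards 0.

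The 11 arrays came from 3 slides. Tumours 2, 3 and 8 were hybridised on slide 1, tumours 4, 7, 9 and 11 shared slide 2, and slide 3 carried tumours 1, 5, 6 and 10. The noise SD between neighbouring probes lay between 0.131 in tumour 8 and 0.275 in tumour 4, except for 0.554 in tumour 9 and 0.514 in tumour 11. Over all autosomal probes the ratios of tumour 11 correlated with those of tumour 4 at -0.60, tumour 9 at -0.65, tumour 5 at -0.61 and tumour 10 at -0.32. The labels give tumour 11 the same dyes as the other arrays, so its labelled direction was kept. Its calls, its bin counts, the limma counts and the mean of the T cell receptor locus are also given with its sign turned. A smaller ratio from a real copy change and a dilution by normal cells cannot be told apart in these samples.

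Each probe is a single designed oligo, and the first and last probes inside a called region are the only sequence marks of its ends that the array gives. They are shown for 5 regions on which the results below turn, in lower case because no base in them is singled out. The sequences are those printed in the array files, with no strand given.
Loss within Erbb4, tumour 1, first probe, chr1:68255607-68255666: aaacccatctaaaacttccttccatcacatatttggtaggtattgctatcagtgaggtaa
Loss within Erbb4, tumour 1, last probe, chr1:68763444-68763503: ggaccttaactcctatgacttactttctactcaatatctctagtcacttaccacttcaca
Long loss on chromosome 2, tumour 1, first probe, chr2:89265961-89266020: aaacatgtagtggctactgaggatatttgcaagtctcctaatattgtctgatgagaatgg
Long loss on chromosome 2, tumour 1, last probe, chr2:102566615-102566674: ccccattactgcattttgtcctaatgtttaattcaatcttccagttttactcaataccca
Long loss on chromosome 2, tumour 7, first probe, chr2:112935395-112935454: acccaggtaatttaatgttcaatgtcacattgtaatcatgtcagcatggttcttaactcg
Long loss on chromosome 2, tumour 7, last probe, chr2:136028137-136028196: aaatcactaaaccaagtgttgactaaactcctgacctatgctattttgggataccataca
Gain over Gfra2 and Xpo7, tumour 6, first probe, chr14:70719822-70719881: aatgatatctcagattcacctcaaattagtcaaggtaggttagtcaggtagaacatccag
Gain over Gfra2 and Xpo7, tumour 6, last probe, chr14:71672432-71672490: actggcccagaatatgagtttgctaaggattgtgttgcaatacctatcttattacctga
Loss without a named gene, tumour 8, first probe, chr14:111473956-111474015: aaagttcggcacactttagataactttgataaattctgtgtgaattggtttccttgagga
Loss without a named gene, tumour 8, last probe, chr14:112516531-112516590: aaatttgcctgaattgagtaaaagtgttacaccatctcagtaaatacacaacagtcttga

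Few stretches of these chromosomes changed. A call was a segment of at least 10 probes whose mean log2 ratio lay at least 0.2 from 0. The 5 chromosomes held 23 calls, 10 gains and 13 losses, against 279 calls on the other autosomes. Per tumour, 0.644% ± 1.15 (SD, n = 11) of the probes of chromosomes 1, 2, 5, 14 and 18 lay in calls, against 18.9% ± 18.7 on the other autosomes. Over all 19 autosomes and 11 tumours the share was 13.4%, with 6.75% of probes in gains and 6.64% in losses. Since the share chose the chromosomes, nothing is read from that contrast. The highest share of any tumour on the 5 chromosomes was 3.60%, in tumour 7, which had 43.8% of its probes on the other autosomes in calls. Tumour 8 had 0.160% on the 5 chromosomes and 50.7% elsewhere, and tumour 1 had 2.12% and 36.8%. Tumours 3, 5, 9 and 10 had no call on these chromosomes, and tumours 9 and 10 had none on any other autosome. In tumour 11 alone the share was higher on the 5 chromosomes, at 0.370% against 0.289%, and both values rest on a noisy array.

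Chromosome by chromosome, the share of probes in calls was 0.0553% on chromosome 1, 1.98% on chromosome 2, 0.0706% on chromosome 5, 0.583% on chromosome 14 and 0.0453% on chromosome 18. Chromosome 2 was thus the last one taken in, and the next autosome outside the set was chromosome 19, at 9.00%. The highest share was 36.6%, on chromosome 15. Chromosomes 2 and 14 had 8 calls each, chromosome 5 had 3, and chromosomes 1 and 18 had 2 each.

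The spread of the 1 Mb bins within a tumour describes the same ratios without a threshold. The SD over the 719 bins was 0.0439 at the lowest, in tumour 5, and 0.135 at the highest, in tumour 7, and the median over the 11 tumours was 0.0703. On the other autosomes the lowest was 0.0445 in tumour 10, the highest 0.291 in tumour 8 and the median 0.174. It was lower on the 5 chromosomes in 10 of 11 tumours, and tumour 10 was the exception, with 0.0450 against 0.0445. The chromosomes were chosen on calls from these ratios, so nothing is read from that contrast. In tumours 9 and 11 the values lay close together, 0.101 against 0.115 and 0.102 against 0.110.

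**Figure D1:**
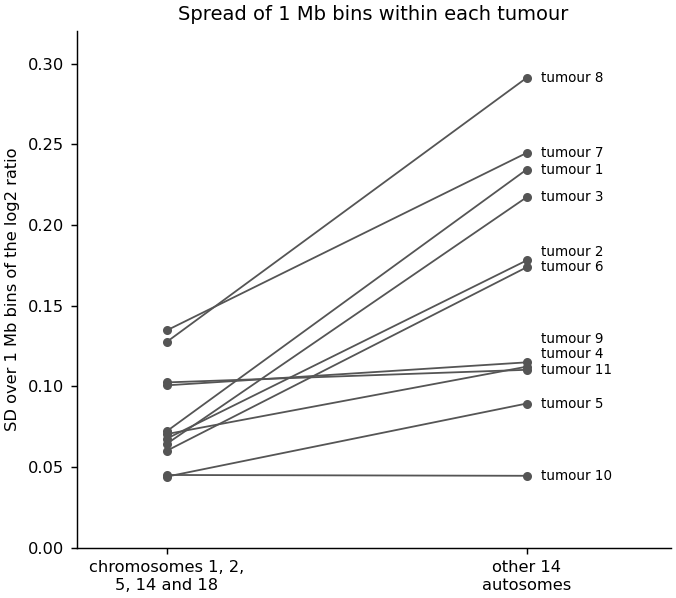
SD over 1 Mb bins of the log2 ratio of tumour over liver within each tumour, on chromosomes 1, 2, 5, 14 and 18 (left) and on the other 14 autosomes (right); each line joins the values of 1 tumour. The left values lie between 0.0439 and 0.135, the right ones between 0.0445 and 0.291, and all lines but that of tumour 10 go up to the right.

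Single bins rarely left the band of 0.2 around 0 on these chromosomes. Over 11 tumours, 195 bin values lay at least 0.2 from 0, which was 2.47% of them, 117 above and 78 below. Over all 19 autosomes 15.5% of bin values did so, 8.27% above and 7.22% below. Tumours 8, 7, 11 and 9 gave 50, 46, 44 and 34 of the 195, and the arrays of tumours 9 and 11 were the noisiest. Tumour 11 had 39 above and 5 below, and these change places with its sign turned. Of the 719 bins, 553 passed 0.2 in no tumour, 142 in 1, 19 in 2 and 5 in 3 tumours, and no bin was gained or lost in more than 2 tumours. On the other autosomes 23 of 1664 bins passed it in no tumour. Because the chromosomes were chosen on calls from these ratios, nothing is read from the contrast with the other autosomes. Averaged over tumours, the lowest bin mean was -0.078, between 130 and 131 Mb of chromosome 2, where tumour 7 had -0.37 and the other 10 tumours had -0.13 to 0.024. The highest was 0.097, between 26 and 27 Mb of chromosome 5, where 9 of 11 tumours were above 0, with 0.31 in tumour 7, 0.24 in tumour 9 and a median of 0.0996, and tumour 11 had -0.15. The lowest bin thus passed 0.2 in 1 tumour and the highest in 2.

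**Figure D2:**
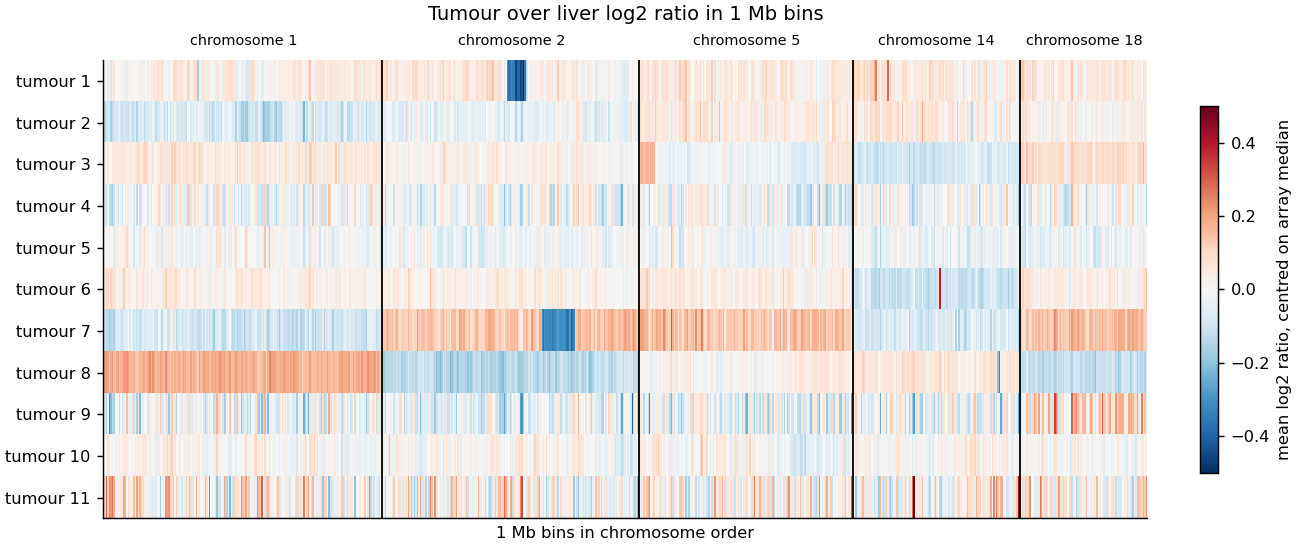
Mean log2 ratio of tumour over liver in the 719 bins of 1 Mb of chromosomes 1, 2, 5, 14 and 18 (columns, in chromosome order) in the 11 tumours (rows), with colours ending at 0.5 and -0.5. The long losses of tumours 1 and 7 stand out on chromosome 2, chromosome 1 of tumour 8 is above 0 along its whole length, and tumours 9 and 11 are speckled.

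Whole chromosomes of the set did shift, by less than the call threshold, in tumours 7 and 8. In tumour 8 chromosome 1 had a mean of 0.18 in a single segment from end to end, and 192 of its 192 bins were above 0, between 0.11 and 0.25. In the same tumour chromosome 2 had a mean of -0.13, with 177 of 177 bins below 0, and chromosome 18 a mean of -0.12, with 88 of 88 bins below 0. Tumour 7 had 0.14 on chromosome 5, with 146 of 147 bins above 0, and 0.15 on chromosome 18, with 88 of 88 bins above 0, while its chromosomes 1 and 14 had -0.092 and -0.075. In tumour 6 chromosome 14 had -0.10, with 112 of 115 bins below 0. For the chromosomes with a mean at least 0.1 from 0, the SD over bins lay between 0.026 and 0.057. Not all of them were flat. Chromosome 14 of tumour 6 was divided into 6 segments, with bins from -0.16 to 0.39, and chromosome 2 of tumour 8 into 13. Chromosome 5 of tumour 7 had 3 segments, with bins from -0.038 to 0.31. These 3 hold calls described below.

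The distance between the highest and the lowest of the 5 chromosome means does not depend on where an array is centred. It was 0.312 in tumour 8 and 0.240 in tumour 7, 0.173 in tumour 3, 0.141 in tumour 9 and 0.137 in tumour 6. It was 0.0213 in tumour 10, 0.0248 in tumour 11, 0.0320 in tumour 5 and 0.0325 in tumour 4. The same distance over the other 14 autosomes was 0.616 in tumour 8, 0.638 in tumour 7 and 0.0308 in tumour 10. Tumour 8 thus had chromosomes 1 and 2 at levels that differed by more than the threshold of a call, although neither was called.

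**Figure D3:**
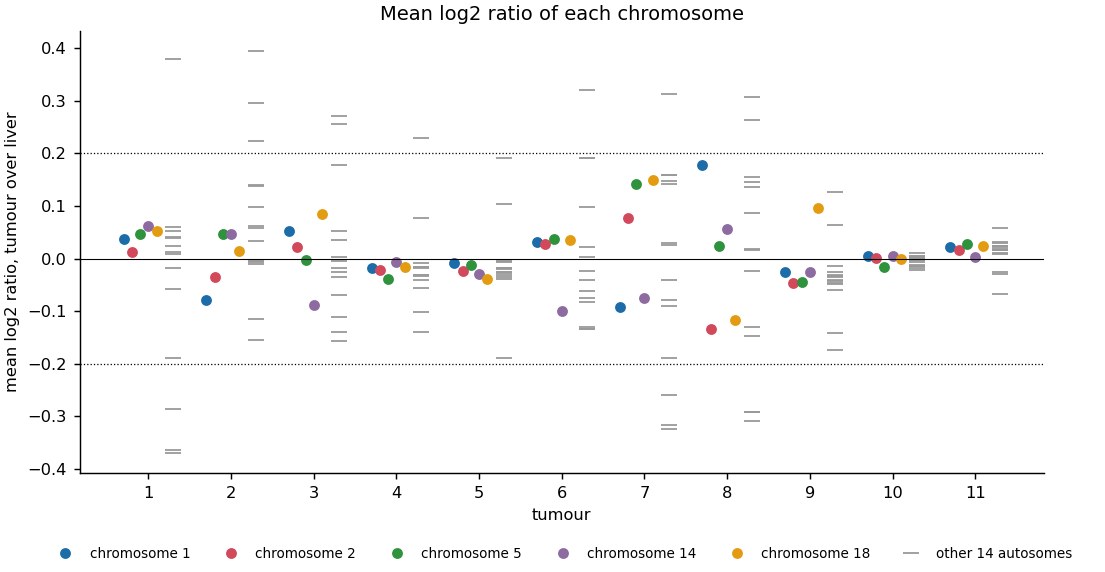
Mean log2 ratio of tumour over liver of chromosomes 1, 2, 5, 14 and 18 (coloured points) and of the other 14 autosomes (grey bars) in each tumour, with dotted lines at 0.2 and -0.2. None of the 5 chromosomes passes a dotted line, and those of tumours 7 and 8 spread the most, by 0.240 and 0.312.

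Whether such a shift counted as a call turned on the centring. With each array centred on the mode of its 1 Mb bins, a choice made after seeing the data, all log2 ratios of tumour 8 shifted by 0.13 with a kernel SD of 0.02 and by -0.16 with a kernel SD of 0.03. With the first, chromosome 1 of tumour 8 was called gained from end to end at 0.31. With the second it was not called, and 6 long segments of chromosome 2 between -0.31 and -0.27 and both long segments of chromosome 18, at -0.28 and -0.29, were called lost. In tumour 7 both kernels shifted the ratios by about the same amount, -0.144 and -0.145, and both gave losses along chromosome 1, in segments at -0.28, -0.21 and -0.24 with the narrower kernel, and along chromosome 14, at -0.22. The raised level of tumour 7 on chromosomes 5 and 18 was then gone, at -0.0030 and 0.0048 with the narrower kernel, and centring on the mode of all probes left 0.049 and 0.056. With the narrower kernel tumour 3 had chromosome 18 gained, at 0.22 and 0.23, and both ends of chromosome 5 gained, at 0.30 and 0.21. At the main centring the first 691 probes of chromosome 5 in tumour 3 averaged 0.17, and they were called with a threshold of 0.15.

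Averaged over the tumours, all 5 chromosomes lay near 0. The mean over tumours was 0.0092 ± 0.072 for chromosome 1 (SD, n = 11), -0.0096 ± 0.054 for chromosome 2, 0.019 ± 0.052 for chromosome 5, -0.014 ± 0.057 for chromosome 14 and 0.026 ± 0.072 for chromosome 18. Chromosome 1 ran from -0.092 in tumour 7 to 0.18 in tumour 8, with a median of 0.0057. Chromosome 2 ran from -0.13 in tumour 8 to 0.076 in tumour 7, and chromosome 18 from -0.12 in tumour 8 to 0.15 in tumour 7. Chromosomes 1 and 2 were above 0 in 6 of 11 tumours each, chromosome 5 in 6, chromosome 14 in 5 and chromosome 18 in 7. Tumours 7 and 8 took opposite ends of the range on chromosomes 1, 2 and 18, and their bin profiles over the 719 bins correlated at -0.53.

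The 23 calls were mostly short, and not all of them stood apart from the other tumours. Their median length was 0.455 Mb, against 2.59 Mb for calls on the other autosomes, and 17 of the 23 spanned at most 1 Mb. Tumour 1 had 6 calls, tumours 4 and 6 had 4 each, tumour 2 had 3, and tumours 7, 8 and 11 had 2 each. In 13 of the 23 no other tumour reached 0.2 in either direction over the same probes, and in the remaining 10 another tumour did. In 17 of the 23 the difference between the call and the probes within 1 Mb on both sides was larger, in the direction of the call, than the same difference in each of the other 10 tumours. Each call was made from the ratios of its own tumour, so nothing is read from how often that tumour lay furthest out. When the calling was repeated in 10 other ways, 9 calls were found every time and the other 14 in at least 5 of the 10. A threshold of 0.15 and a minimum of 5 probes only loosen the limits, so they could not lose a call. The authors' value table holds nearly the same ratios and also returned all 23. These are among the 10 settings counted below. A penalty factor of 4 kept 9 of the 23 and normexp background correction 14.

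**Figure D4:**
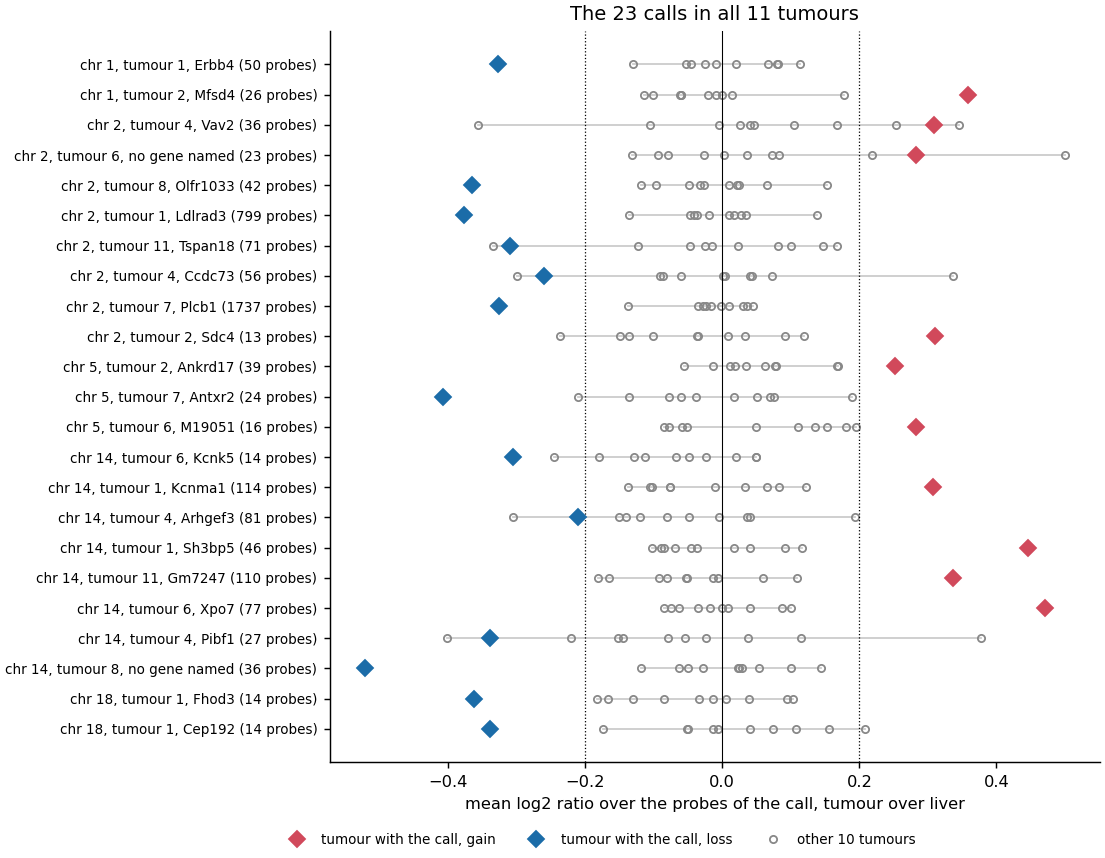
Mean log2 ratio of tumour over liver over the probes of each of the 23 calls, in the tumour with the call (filled, red for gain and blue for loss) and in the other 10 tumours (open circles), with dotted lines at 0.2 and -0.2. Calls such as that in Erbb4, at -0.33, stand clear of the other tumours, whereas in each of the 4 calls of tumour 4 the value of tumour 9 lies further from 0.

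Tumour 1 lost part of Erbb4, which encodes a receptor tyrosine kinase for neuregulins that is known in the mammary gland for its part in lactation. The loss covered chr1:68255607-68763503, 0.508 Mb, with 50 probes, all of them within Erbb4 in the array's annotation. Its mean log2 ratio was -0.33 in tumour 1, with 47 of 50 probes below 0. In the other 10 tumours the same probes averaged -0.13 to 0.11, with a median of 0.0054. The loss was called from these same probes of tumour 1, so nothing is read from its place below the others. Erbb4 continued on both sides: the 16 probes before the loss averaged -0.049 and the 42 probes after it averaged 0.041 in tumour 1. Over all 108 probes of the gene, tumour 1 had -0.14, close to tumour 7 at -0.13, and the highest was tumour 8 at 0.13, so the gene-wide mean did not set tumour 1 apart. Whether the lost stretch covers exons or introns was not examined, since no mm9 gene model was used here.

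**Figure D5:**
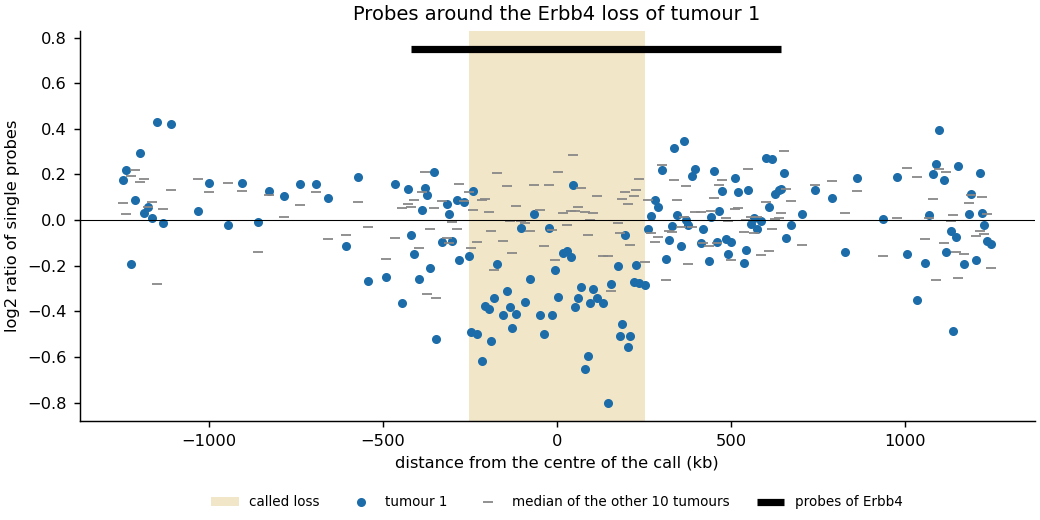
Log2 ratios of single probes against their distance in kb from the centre of the loss, in tumour 1 (points) and as the median of the other 10 tumours (dashes); the shaded span is the called loss and the black bar the reach of Erbb4 probes. Inside the span, which was called from these points, 47 of the 50 points of tumour 1 lie below 0, and on both sides, still within Erbb4, they average -0.049 and 0.041.

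The other call on chromosome 1 was a gain of tumour 2 at chr1:133836582-134119310, of 26 probes. It had a mean of 0.36 in tumour 2, against -0.11 to 0.18 in the other 10 tumours, and its flanks in tumour 2 averaged -0.078. The gained stretch named Mfsd4, now Mfsd4a, a membrane transporter of the major facilitator family, and Lemd1, which codes for a protein with a LEM domain. It also held Slc45a3, a sugar transporter gene known from human prostate, and Elk4, which encodes an ETS factor that binds DNA with serum response factor. Mfsd4a alone had 0.43 in tumour 2, with a median of -0.084 over the 11 tumours. Slc45a3, with 2 probes, had 0.054 in tumour 2 and at most 0.083, in tumour 8. Lemd1, in which the call ends, had -0.00037 in tumour 2 over its 6 probes, not all of them in the call. Not every gene named in the stretch thus showed the gain over its own probes. Both calls on chromosome 1 were found in 10 of 10 other settings.

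The 2 long calls of the set were losses on chromosome 2, and they held 73.2% of all its called probes. In tumour 1, chr2:89265961-102566674 was lost, 13.3 Mb with 799 probes, at a mean of -0.38. In the other 10 tumours the same probes averaged -0.14 to 0.14. Within the loss 97.9% of probes were below 0 in tumour 1, against 38.8% on the rest of its chromosome 2, which averaged 0.038. In tumour 7, chr2:112935395-136028196 was lost, 23.1 Mb with 1737 probes, at a mean of -0.33. There the other 10 tumours averaged -0.14 to 0.045, and 90.8% of probes were below 0 in tumour 7, against 23.6% on the rest of its chromosome 2, which averaged 0.14. Set against the 1 Mb on both sides, the tumour 7 loss measured -0.49 and the tumour 1 loss -0.43, and both differences are free of the centring. The losses did not overlap each other, and both were found in 10 of 10 other settings.

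The 6 symbol-named genes with the most probes in each long loss, a choice made after seeing the data, are given with their values. The losses were called from these same probes, so nothing is read from the low values. In tumour 1, Prr5l, whose product binds the mTORC2 complex, had -0.43, against -0.15 to 0.13 in the other tumours. Lrrc4c, a netrin-G ligand of neurons, had -0.39, against -0.20 to 0.11, and Ldlrad3, a member of the LDL receptor family, had -0.30, against -0.13 to 0.14. Phf21a, part of a histone demethylase complex, had -0.24, against -0.11 to 0.23. For Ambra1, an autophagy regulator, and Ptprj, a receptor-type tyrosine phosphatase, the value of tumour 1 lay within the range of the others. Traf6, a ubiquitin ligase of Toll-like receptor signalling, was the only gene of the fixed lists inside the loss, and its 2 probes gave -0.19 in tumour 1, against -0.59 to 0.58 in the others. Cd44, which codes for a hyaluronan receptor, and Elf5, a mammary luminal transcription factor, lie beyond the last lost probe, which the array places in Slc1a2, a glutamate transporter gene.

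In tumour 7, Plcb1 and Plcb4, which encode phospholipases C of the beta class, had -0.34 and -0.29, against -0.15 to 0.11 and -0.26 to 0.13 in the other tumours. Frmd5 had -0.32, Fmn1, a formin gene, -0.30, Meis2, a homeobox gene, -0.28, and Acoxl -0.26. Of the fixed lists, 7 genes lay in the loss, and their values are a description, since the loss was called from their probes too. Mertk, a receptor that takes part in clearing dead cells, had -0.34 over 12 probes, the lowest value of any tumour. Bub1 and Bub1b, which encode kinases of the spindle checkpoint, had -0.40 over 4 probes and -0.29 over 5. For Bub1 tumour 7 was the lowest, whereas Bub1b was lower in tumour 11, at -0.31. Tyro3, Pcna and Bmp2 had -0.39, -0.68 and -1.50 over 1 probe each, and Cdc25b, also with 1 probe, had 0.027. Tumour 9 was lower for Tyro3, Pcna and Bmp2, at -0.86, -0.87 and -1.53. Single probes scatter widely: Bmp2 ranged from -1.53 in tumour 9 to 0.40 in tumour 11.

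The smaller calls on chromosome 2 were less separate. Tumour 4 gained chr2:26946742-27287690, with 36 probes over Vav2, Sardh, a mitochondrial sarcosine dehydrogenase, and Adamtsl2, an extracellular matrix protein. It had 0.31 there, but tumour 9 had 0.34, tumour 7 had 0.25 and tumour 11 had -0.36. Tumour 4 lost chr2:104275386-104870718, with 56 probes over Hipk3, Cstf3, Qser1 and Ccdc73, at -0.26, where tumour 9 had -0.30 and tumour 11 had 0.34. Tumour 11 lost chr2:92147066-93189203 at -0.31, with 71 probes, or gained it at 0.31 when its sign is turned. That stretch lies inside the long loss of tumour 1, which had -0.34 over the same probes, and it holds Tspan18, Cry2, a clock repressor, and Mapk8ip1, a scaffold of the JNK pathway.

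Tumour 8 lost chr2:85872518-86334130 at -0.36, with 42 probes of which 4 carry a gene name, among them Olfr1033 of the olfactory receptor family. The other 10 tumours had -0.12 to 0.15 there, but chromosome 2 as a whole stood at -0.13 in tumour 8, and the difference from the flanks was -0.21, less than the -0.23 of tumour 11. Tumour 6 gained chr2:36148713-36485135 at 0.28, a stretch of 23 probes with no gene name next to Ptgs1, which encodes a cyclooxygenase. Tumour 11 had 0.50 and tumour 7 had 0.22 over the same probes. Tumour 2 gained chr2:164245132-164340948, with 13 probes, at 0.31. Sdc4, a cell-surface proteoglycan gene, Sys1 and Pigt lie in it, and the other tumours had -0.24 to 0.12. Of the probes in that call 23.1% were not well above background in tumour 2, and the call was found in 6 of 10 other settings.

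On chromosome 5, tumour 7 lost chr5:98362265-98707259 while the chromosome around it was raised. The 24 probes averaged -0.41, the flanks 0.14, and the difference of -0.55 lay below that of every other tumour, of which tumour 9 was lowest, at -0.16, and tumour 11 highest, at 0.23. The array names Antxr2, a collagen-binding receptor that anthrax toxin uses, Fgf5, a growth factor that limits hair length, and Prdm8, a histone methyltransferase family member. Tumour 9 had -0.21 over the same probes. This call was found in 10 of 10 other settings.

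Tumour 2 gained chr5:90713483-91140431, with 39 probes, at 0.25, against -0.056 to 0.17 in the other 10 tumours. Ankrd17, with 16 probes in all, had 0.18 in tumour 2, its highest value, and Rassf6, a Ras-association family member, had 0.23, also its highest. The albumin family genes Alb, Afp and Afm, expressed by liver, lie in the same stretch. Afm had its highest value, 0.34, in tumour 3 and not in tumour 2. Tumour 6 gained chr5:104965196-105310876, with 16 probes, at 0.28, where 4 of the other tumours had 0.13 to 0.20. These calls were found in 6 and 5 of 10 other settings.

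Chromosome 14 held the highest and the lowest call of the set. Tumour 6 gained chr14:70719822-71672490, with 77 probes, at 0.47, while its flanks stood at -0.15 and the rest of the tumours at -0.085 to 0.10. Xpo7, a nuclear export receptor gene, had 0.46 in tumour 6, Gfra2, the receptor for neurturin, also 0.46, and Piwil2, of the piRNA pathway, 0.60. The medians of these 3 genes over the tumours were 0.039, 0.032 and 0.036. Bmp1, which encodes the procollagen C-proteinase, lies in the same stretch. The difference from the flanks, 0.62, was the largest of the 23 calls.

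Tumour 8 lost chr14:111473956-112516590 at -0.52, with 36 probes and no gene name on any of them. The other 10 tumours had -0.12 to 0.14 over these probes. The first and the last probe of the loss, printed above, had -0.83 and -0.40 in tumour 8. Tumour 1 gained 2 stretches elsewhere on chromosome 14. The first, chr14:23674524-24832412, at 0.31 with 114 probes, covers Kcnma1, which encodes the large-conductance calcium-activated potassium channel. Over its 81 probes Kcnma1 had 0.28 in tumour 1 and a median of -0.056 over the 11 tumours. The second, chr14:32002590-32457140, at 0.45 with 46 probes, covers Sh3bp5 at 0.51, Colq, the collagen tail of acetylcholinesterase, at 0.29, and Hacl1, a peroxisomal lyase gene. The other tumours had -0.10 to 0.12 in the second stretch. All 4 of these calls were found in 10 of 10 other settings.

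The remaining calls on chromosome 14 came from tumours 4, 6 and 11. Tumour 4 lost chr14:27427866-28252818 at -0.21, with Arhgef3, Il17rd, an inhibitor of FGF signalling, and Appl1, an endosomal adaptor. Tumour 9 had -0.31 there and tumour 11 had 0.19. Tumour 4 also lost chr14:99532499-99872843 at -0.34, over Pibf1 and Klf5, an epithelial transcription factor. There tumour 9 had -0.40, tumour 7 had -0.22 and tumour 11 had 0.38. Tumour 11 gained chr14:52035530-54255755, 110 probes, at 0.34, or lost it at -0.34 with its sign turned, and the other tumours had -0.18 to 0.11. Tumour 6 lost chr14:20950920-21089188, 14 probes next to and over Kcnk5, a potassium channel gene, at -0.31, where tumour 11 had -0.25. Tumours 4, 9 and 11 share slide 2 and the later version of the image software, and the part of either in these shared values was not tested.

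Chromosome 18 held the smallest share of probes in calls, and both of its calls were short losses in tumour 1. The first, chr18:24809691-24966208, had 14 probes at -0.36, against -0.18 to 0.10 in the other tumours. It covered probes of Mocos, a molybdenum cofactor sulfurase gene, which had -0.43 over 4 probes, and some of Fhod3, a formin gene whose 43 probes averaged 0.017 in tumour 1. The second, chr18:67867995-68017294, had 14 probes at -0.34, against -0.17 to 0.21. It lay over Seh1l, a nuclear pore gene, at -0.27 over 3 probes, Cep192, a centrosome gene, at -0.19 over 8, and Ptpn2, a tyrosine phosphatase gene, at -0.090 over 6. Each was found in 8 of 10 other settings. Both were lost with a penalty factor of 4, and also with a minimum of 20 probes, which a call of 14 probes cannot meet.

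The 6 lists, of growth factor receptors and ligands, the PI3K and AKT pathway, tumour suppressors, oncogenes with cell cycle and survival genes, mammary lineage genes and large genes often broken in tumours, held 123 genes with probes here, and 12 of them, 9.76%, lay in or touched a call in some tumour. Of all 5539 gene names on these chromosomes 513 did so, 9.26%, so the share of the listed genes was near that of any gene. Of 12 genes of the PI3K and AKT pathway with probes none touched a call, and their means over the 11 tumours lay between -0.083 for Tsc1, an inhibitor of mTORC1, and 0.039 for Prex1, a Rac exchange factor. Irs1, an adaptor of the insulin receptor, had -0.0028 ± 0.072 (SD, n = 11) and Inpp4a, a phosphatase that removes a PI3-kinase product, -0.013 ± 0.11. Of 27 growth factor receptors and ligands, 5 touched a call, namely Erbb4, Mertk, Tyro3, Bmp2 and Fgf5. Kit had 0.086 ± 0.13 and Kdr, a VEGF receptor gene, 0.068 ± 0.11, with their highest values 0.40 in tumour 7 and 0.29 in tumour 9.

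Of 22 tumour suppressor genes with probes, 1 touched a call, Bub1b in tumour 7. Among all gene names on these chromosomes 9.26% did so, and nothing is read from the counts of single lists. Rb1 had -0.058 ± 0.12 (SD, n = 11), Brca2 -0.015 ± 0.19, Apc 0.064 ± 0.096 and Smad4 0.042 ± 0.15, all without a call in any tumour. Casp8, which encodes an initiator caspase, had ratios above 0 in all 11 tumours over 4 probes, the lowest 0.020 in tumour 5 and the highest 0.34 in tumour 9. Of 34 oncogene, cell cycle and survival genes, 5 touched a call, namely Traf6, Bub1, Pcna, Cdc25b and Klf5. Bcl2 had 0.051 ± 0.14, Cdk6 0.032 ± 0.10 and Mdm4, which restrains p53, 0.012 ± 0.17. None of 15 mammary lineage genes touched a call, milk casein genes of chromosome 5 included, and their means ran from -0.29 for Csn2 to 0.20 for Areg, the gene of amphiregulin, with 1 probe each. Of 19 large genes often broken in tumours 2 touched a call, Erbb4 and Kcnma1. Fhit, Lrp1b, Macrod2 and Gpc5, with 153 to 203 probes each, had means between -0.0095 and -0.00045 and reached 0.2 in no tumour. Of 35 names from families that vary between mouse strains, 1 lay in a call, Olfr1033.

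Tested gene by gene over the 11 tumours, 15 genes on these chromosomes were higher and 7 lower in tumour than liver by limma, of 2709 with at least 3 probes. A gene was called where its Benjamini-Hochberg adjusted p was under 0.05 and its mean lay 0.1 or more from 0. Over the whole array 4.66% of genes were higher and 2.29% lower, and nothing is read from the difference, because the chromosomes were chosen on these ratios. The median of the gene means was 0.0044 on the 5 chromosomes, against -0.011 over all 9384 genes tested. By chromosome the numbers higher and lower were 3 and 2 on chromosome 1, 2 and 2 on chromosome 2, 7 and 0 on chromosome 5, 2 and 3 on chromosome 14, and 1 and 0 on chromosome 18. Casp8, at 0.18 ± 0.12 (SD, n = 11), was among the higher ones, and no other gene of the 6 lists was called in either direction. That call was lost without tumour 3 or tumour 6 and with tumour 11 turned, when limma gave adjusted p = 0.052, 0.051 and 0.085. These counts rest on tumour 11: without it 74 genes were higher and 67 lower, and with its sign turned 103 and 91. Without tumour 3 the limma count was 0 higher, 1 lower. Leaving out any other tumour gave 2 to 13 higher and 1 to 6 lower. Of the 2709 genes, 218 had an unadjusted limma p under 0.05 in the fit of all 11.

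The antigen receptor locus of T cells on chromosome 14, between Sall2 and Dad1, served as a mark of T cells, whose rearranged DNA lacks part of it. Its 94 probes at chr14:52951143-54853797 averaged 0.0013 ± 0.073 over tumours (SD, n = 11), lowest in tumour 3 at -0.10 and highest in tumour 11 at 0.11. With tumour 11 turned the mean was -0.018. The gain called in tumour 11 on this chromosome reached into the locus. Against the 2 Mb on both sides the difference was 0.013 ± 0.036, below 0 in 4 of 11 tumours. No expression was measured, so other markers of cell type cannot be read here.

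Noise between neighbouring probes bears on how small a change can be seen. It also sets the penalty behind the calls that chose the chromosomes, so its values are a description. It averaged 0.245 on the 5 chromosomes and 0.249 on the other autosomes, a difference of -0.0036 ± 0.0033 (SD, n = 11). The difference was below 0 in 10 of 11 tumours, above 0 in tumour 2 and farthest from 0 in tumour 9, at -0.010. The standard error of a mean over 10 probes, the fewest allowed in a call, ran from 0.042 in tumour 8 to 0.18 in tumour 9. In tumours 9 and 11, at 0.18 and 0.16, it came close to the threshold of 0.2. The standard error is not the limit of detection. The penalty per segment grows with the noise in every tumour, so a short change of 0.2 can be missed in any of them. Median probe spacing was 10.3 to 11.4 kb, and the mean GC content of the probes 36.7% to 36.8% on all 5 chromosomes.

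The fine pattern of the bins was shared between some arrays. Over the 719 bins, tumours 4 and 9 correlated at 0.72, tumours 4 and 11 at -0.69 and tumours 9 and 11 at -0.62, all on slide 2. Tumour 7, also on slide 2, correlated with tumours 4, 9 and 11 at only 0.092, 0.24 and -0.066. Tumours 3 and 6, on different slides, correlated at 0.62, and tumour 5, on slide 3, correlated with tumours 4 and 9 at 0.29 and 0.39 over these bins and at 0.72 and 0.75 over all autosomal probes. Tumours 3 and 6 both had chromosome 14 below the other 4, at -0.088 and -0.10. These are descriptions over bins, which share an array, and carry no p. Bin ratios of tumours 10 and 11 correlated with the GC content of their probes at -0.34 and -0.31, and those of the other 9 tumours between -0.095 and 0.17. Tumours 3, 5 and 10 had no bin past 0.2 on these chromosomes.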

How the data were processed

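Per the labels, tumour DNA (Cy5) and liver DNA of the same animal (Cy3) were hybridised on Agilent arrays. Per the submitters' processing notes, Agilent Feature Extraction 10.5.1.1 and Partek (version not given in the sources used here) were used. Per the file headers, tumours 4, 7, 9 and 11 were read with version 11.0.1.1. The deposited files hold, per spot, the processed intensity of both channels, background-subtracted and dye-normalised by the authors' software, and a log10 ratio of red over green. The authors' value table holds the deposited log2 form of that ratio per probe, not centred.

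From these, the log2 of processed red over green was averaged per probe, without outlier spots, and centred on the array median. The deposited log10 column is 0 at 16 to 2830 spots per array (most in tumour 2), where the ratio of processed signals was used. Spots not well above background made up 0.0803% (tumour 6) to 12.8% (tumour 9), and none was saturated. Precision is limited by there being 11 arrays. Each chromosome was divided by exact optimal partitioning (penalty per segment of 2 noise variances multiplied by ln of the probe count, segments of 5 probes or more, and probes beyond 4 noise SDs of a running median of 11 pulled in), checked on simulated data. Noise is the scaled median absolute difference between neighbouring probes. Genes are means over probes the array names, 5539 names on these chromosomes, of which 3889 matched a RefSeq table of build GRCm38, used for current symbols only. Genes with at least 3 probes were fitted with limma 3.58.1 (intercept, empirical Bayes) over the whole array. Python 3.11.15, numpy 2.4.6, scipy 1.17.1 and R 4.3.3 were used. The animals are separate replicates of 1 group, 1 array each.

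The members, lists and tests were chosen with earlier results of these data known. Genes were named by a rule: list genes or the 3 genes with most probes in each call of at most 15 Mb, list genes in longer calls, and the highest and lowest mean of each chromosome and list, up to 50 names, calls first. The rule gave 69. Genes outside it were named for their place in a call after their values were seen. Alternatives were other centrings, normexp background correction with an offset of 50, the authors' value table, no dim probes, other thresholds, penalties, bin sizes and probe minimums, a quadratic GC fit, slide as a random block, tumour 11 turned, and each tumour left out. Normexp used median signals, since 4 files hold no mean signals.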

Additional observations from a re-analysis of the deposited data

How the results depend on the processing

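The share of probes in calls, which chose the 5 chromosomes, stayed lower on them than on the other autosomes in each alternative that gave both. Counts moved. Against 10 gains, 13 losses and 0.644% of probes per tumour in calls, a threshold of 0.15 gave 18, 23 and 5.31%. A penalty factor of 1 gave 67 gains and 87 losses, and a factor of 4 gave 4 and 5. At least 5 probes per call gave 18 gains, leaving out dim probes gave 6, and normexp gave 3.35% of probes in calls. Centring on the mode of 1 Mb bins, chosen after seeing the data, gave 16 gains and 8.22% with a kernel SD of 0.02, and 28 losses and 7.82% with 0.03. Bin values past the threshold numbered 195, against 390 with centring on the mode of all probes, 325 with normexp, 703 in 0.5 Mb bins, 47 in 2 Mb bins, 724 at a threshold of 0.15 and 45 at 0.3. The limma counts of 15 higher and 7 lower became 6 and 2 with centring on the mode, 41 and 26 with normexp, 103 and 91 with tumour 11 turned, 54 and 49 with slide as a random block (consensus correlation -0.111), and 67 and 41 with at least 1 probe per gene. Without dim probes 4 were lower. Leaving out each tumour in turn gave 0 (without tumour 3) to 74 (without tumour 11) higher, 1 to 67 lower, 7 to 10 gains, 9 to 13 losses and 0.349% (without tumour 7) to 0.709% of probes in calls. It gave chromosome 1 means of -0.0077 to 0.019 and chromosome 2 means of -0.018 to 0.0028. Turning tumour 11 turns both of its own calls by construction. Of the other values recomputed here, no called one changed sign. The cause of these moves was not tested beyond what each setting changes by construction. No paired analysis was possible because there are no further groups to pair by replicate number; each ratio already sets a tumour against liver of its own animal. Noise limits what short stretches can show, most of all in tumours 9 and 11, and probe spacing limits any change shorter than about 10 probes.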
